A study of Mus musculus with 6 samples.

Results

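The thiol redox genes of spermatids described here are 10 genes, Gpx4, Prdx4, Txndc2, Txndc8, Nme8, Txnrd1, Txnrd3, Txn1, Gstm5 and Sod1, in the testes of Alkbh1 knockout and wild-type mice. A probe set (several short probes that together read 1 stretch of a transcript) was taken as theirs where the array's annotation gave it exactly 1 of these names, current or older (Nme8 was formerly Txndc3). All 10 genes were found, with 23 probe sets of the 45037 that are not controls, and no probe set named a member together with another gene. Of the 23, 20 were among the 60% of probe sets with the highest mean level, which were tested, and 3 lay below that filter (1 each of Prdx4, Txnrd1 and Sod1). Whole testes came from 3 wild-type mice (WT, replicates 1 to 3) and 3 mice with genotype Alkbh1-/- (KO, replicates 1 to 3), all 12 weeks old and untreated as far as the labels say, with 1 Affymetrix array per mouse. The labels spell the strain of both groups C57/BL6 in the source and C53/BL6 in the genotype field. Alkbh1 encodes an iron and 2-oxoglutarate dependent dioxygenase, and the stretch of it that was deleted was not given in the sources used here. It was asked how the level of each of these transcripts in the whole testis differed between KO and WT.

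Elongating spermatids replace their histones by protamines and build the tail and its mitochondrial sheath, and in both places cysteine thiols are oxidised to disulfide bridges that stabilise the sperm. Peroxidases pass the oxidising power of peroxides to protein thiols, while thioredoxins and glutathione, recharged by their reductases with NADPH, reduce such bridges again. Several of these proteins have forms or family members made mainly in spermatids, and loss of the selenium-dependent peroxidase Gpx4 from spermatocytes is known to cause male infertility.

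The promoter sequences of the members whose values are described most closely below are shown first, the peroxidases Gpx4 and Prdx4, the 3 spermatid thioredoxins and the reductase Txnrd3. Each is the 250 bases before a transcript start in RefSeq, build GRCm38.p6, written 5′ to 3′ on the gene's strand. Capitals mark matches, on either strand, to TGACG (part of the cAMP response element, which the spermatid activator CREM binds), TGACNNNGC (the core of the antioxidant response element), TATAAA (the TATA box) or TGATGTCA (a variant of the cAMP response element, added after the windows had been read).
Gpx4 (chr10:80053315-80053564, plus strand): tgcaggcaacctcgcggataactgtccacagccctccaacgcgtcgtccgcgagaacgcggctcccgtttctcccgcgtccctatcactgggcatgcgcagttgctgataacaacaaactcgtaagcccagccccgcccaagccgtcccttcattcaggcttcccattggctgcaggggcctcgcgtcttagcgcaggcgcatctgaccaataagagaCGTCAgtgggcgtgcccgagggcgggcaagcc
Prdx4 (chrX:155338461-155338710, minus strand): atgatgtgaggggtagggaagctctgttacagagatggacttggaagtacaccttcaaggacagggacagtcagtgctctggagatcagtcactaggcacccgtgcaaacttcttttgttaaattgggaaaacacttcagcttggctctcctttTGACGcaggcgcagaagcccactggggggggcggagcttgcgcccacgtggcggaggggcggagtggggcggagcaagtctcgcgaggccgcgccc
Txndc2 (chr17:65642205-65642454, minus strand): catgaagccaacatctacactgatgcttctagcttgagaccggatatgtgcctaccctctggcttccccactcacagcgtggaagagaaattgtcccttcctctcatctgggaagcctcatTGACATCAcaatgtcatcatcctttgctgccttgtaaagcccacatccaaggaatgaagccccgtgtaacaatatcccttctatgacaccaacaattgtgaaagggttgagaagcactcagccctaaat
Txndc8 (chr4:58009127-58009376, minus strand): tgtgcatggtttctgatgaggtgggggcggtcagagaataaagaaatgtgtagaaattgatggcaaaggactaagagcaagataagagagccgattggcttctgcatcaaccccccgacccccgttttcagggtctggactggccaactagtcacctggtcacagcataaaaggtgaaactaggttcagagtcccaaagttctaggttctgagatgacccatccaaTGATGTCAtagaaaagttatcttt
Nme8 (chr13:19697761-19698010, minus strand): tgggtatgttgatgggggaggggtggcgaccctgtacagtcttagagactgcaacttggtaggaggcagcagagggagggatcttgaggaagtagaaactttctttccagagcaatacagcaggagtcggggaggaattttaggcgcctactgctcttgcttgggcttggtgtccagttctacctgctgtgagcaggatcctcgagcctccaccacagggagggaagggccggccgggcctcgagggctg
Txnrd3 (chr6:89643738-89643987, plus strand): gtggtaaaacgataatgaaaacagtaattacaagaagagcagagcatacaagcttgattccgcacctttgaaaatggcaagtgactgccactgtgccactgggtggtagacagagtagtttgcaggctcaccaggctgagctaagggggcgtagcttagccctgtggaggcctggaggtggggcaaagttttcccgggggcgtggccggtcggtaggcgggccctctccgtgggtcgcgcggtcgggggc

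All 10 members had such a window, with 16 windows in all, because Gpx4, Txndc2 and Txnrd1 had several starts with a window. The annotated gene reaches further upstream than the start used for Prdx4 (to 155342272, start 155338460). The same holds for Txndc2 (to 65648874, starts 65642204 and 65639756). It also reaches slightly further for Nme8 (to 19697826, start 19697760) and Txndc8 (to 58009135, start 58009126). Any transcript starts further upstream in these genes were not covered. TGACG was found in 5 of the 16, belonging to Gpx4, Prdx4 and Sod1, against 17.8% of all 32851 windows of this length. The Gpx4 windows at the starts 80053565 and 80053659 overlap and share the same match, which lies 32 bases before the first of these starts. In the window of Prdx4 the match lies 96 bases before the start. TGACNNNGC occurred in 4 windows, those of Txnrd1, Gstm5, Sod1 and the second start of Txndc2, against 10.2% of all windows. TATAAA occurred in the windows of Sod1 and Txn1, against 12.4% of all windows. TGATGTCA occurred in 3 windows, among them those of Txndc8 (24 bases before the start) and Txndc2 (129 bases before). It was added after these windows had been read, so this count cannot be compared with its share of 2.93% over all windows. TGACG and TGACNNNGC share their first letters, but no match of one overlapped a match of another in these windows. A match is only a run of letters, and the windows of Nme8 and Txnrd3 shown above held none of the 4. In the same annotation Txn1 and Txndc8 lie near each other on chromosome 4, with 1 listed gene, the noncoding Gm35344, between them.

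The arrays were alike, with Pearson correlations from 0.989 to 0.996 across the 27022 tested probe sets, array medians from 6.62 to 6.64 log2 and highest values from 14.95 to 15.00. WT replicates 1 and 2 stood apart. The 27 probe sets for spiked-in Bacillus RNAs averaged 6.33 log2 in WT replicate 1, 8.76 in WT replicate 2 and 7.13 to 7.58 in the others. Other spiked-in controls were left out of this mean, and spiked-in signal below means these 27. The 3′ minus 5′ difference of the Gapdh control was highest in WT replicate 2 (0.34 against 0.07 to 0.16). Markers of elongating spermatids were high on every array (list means 14.40 to 14.47 over 10 genes), as were those of round spermatids (12.06 to 12.26 over 8), which matches the labelled tissue. All such list means took the highest probe set of each gene. Other probe sets of a gene could lie far lower, such as Oaz3 1429341_at at a WT mean of 3.24. Epididymis markers were low, their highest gene being Gpx5 at a mean of 6.44 over the 6 arrays. Their list mean (5 genes of 7) was 5.94 in KO replicate 2, 5.69 in WT replicate 1 and 5.37 to 5.46 elsewhere. Fat markers (3 genes of 5) averaged 8.94 in KO replicate 2 and 7.25 to 8.23 elsewhere. The Alkbh1 probe set 1434660_at read 8.43, 8.65 and 8.72 in WT and 5.76, 5.30 and 5.20 in KO, lower on every KO array, which checks the labels only if its probes read the deleted part. A second, 1438681_at, read 6.97, 6.82 and 7.16 in WT and 6.03, 5.78 and 6.10 in KO, also lower on every KO array, but did not pass (−1.02 ± 0.12, limma adjusted p = 0.0697). The arrays give 1 value per whole testis, so that fewer cells of a type and less RNA per cell cannot be told apart.

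No member passed the test between KO and WT. Of their 20 tested probe sets 0 passed (limma, Benjamini-Hochberg adjusted p under 0.05 over all tested probe sets), against 0.0407% of all tested probe sets (11 of 27022), 0.0333% higher and 0.0074% lower in KO. At an unadjusted p under 0.05 there was 1 of the 20, a probe set of Prdx4, against 5.11% of all. The KO and WT values did not overlap at 2 of the 20, both of Txnrd3 and both higher in KO, against 7.12% of all tested probe sets in that direction, and at 0 in the lower direction, against 3.84%. This count of 2 was 1 with quantile normalization. With single arrays left out it was 3 to 8, with 8 without WT replicate 1 and 7 without WT replicate 3. Groups separate more easily with fewer arrays, and the share of all tested probe sets under these settings was not computed. These counts therefore say nothing about the members in particular. The 20 differences, always KO minus WT on the log2 scale, ran from −0.33 to 0.12 with a median of 0.044, beside 0.013 for all tested probe sets. Strongly hybridising probe sets as a whole sat above zero. Over the 1482 with a mean log2 value of 12 or more the median was 0.040, and the 11 member probe sets at that level had the same median, 0.040 (a limit chosen after seeing the data). With quantile normalization the median over all 23 member probe sets went from 0.043 to 0.002, and with WT replicates 1 and 2 left out it was −0.034.

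**Figure D1:**
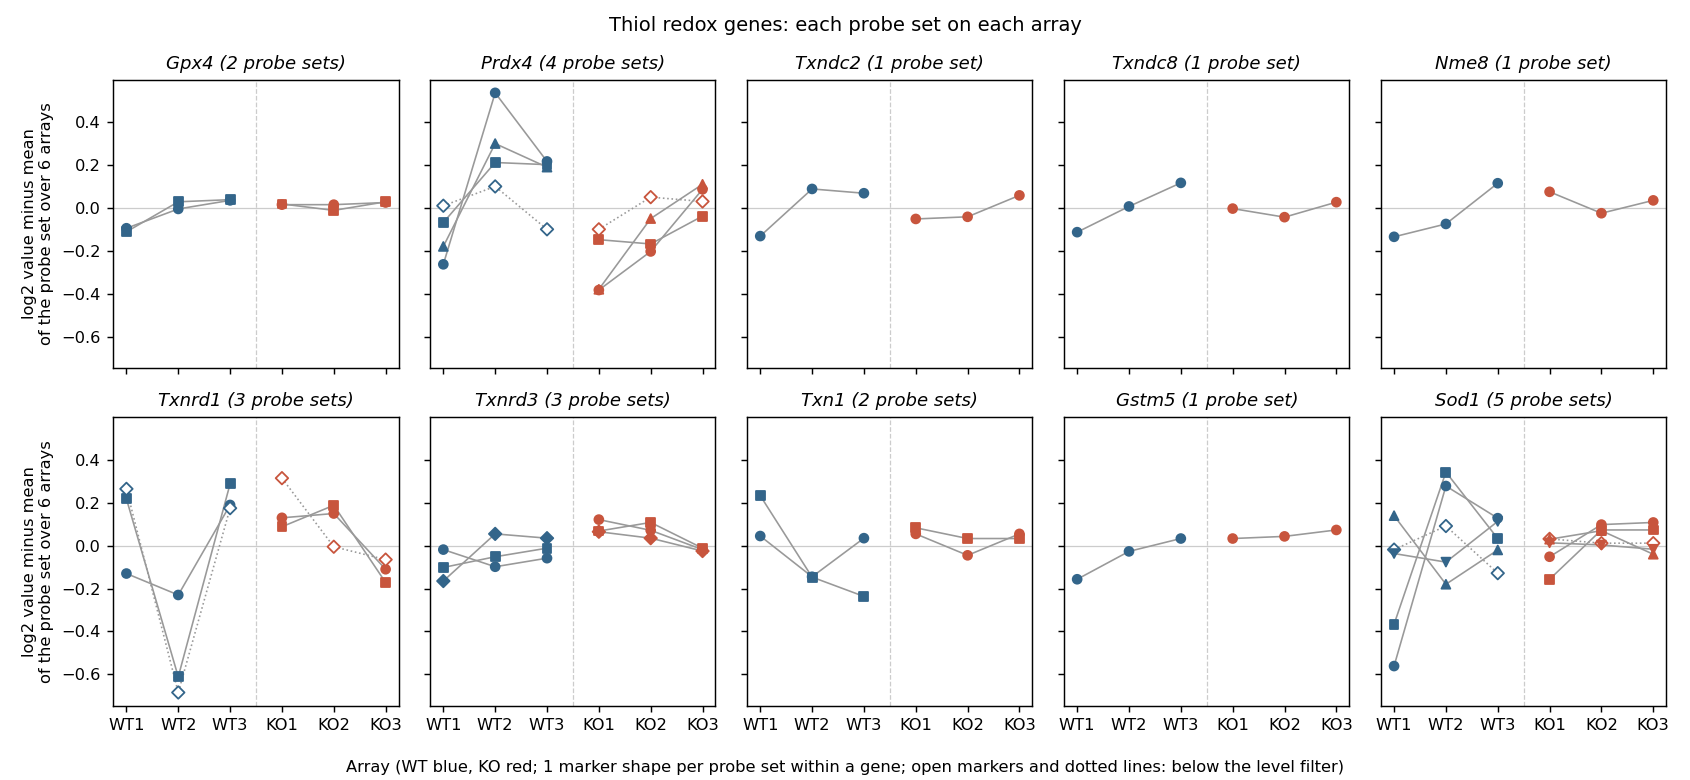
Log2 value of each member probe set minus its own mean over the 6 arrays (vertical axis) on each array (horizontal axis, WT blue, KO red), in 1 panel per gene; lines only join the points of 1 probe set within a group, since replicates have no order. The 3 tested probe sets of Prdx4 lie highest in WT replicates 2 and 3, Txnrd1 lies lowest in WT replicate 2, and the KO arrays of most genes sit close together.

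Gpx4 encodes the glutathione peroxidase that reduces lipid hydroperoxides in membranes, and its protein also becomes part of the sperm's mitochondrial sheath and, in a nuclear form, of the condensing nucleus. Probe set 1451695_a_at of Gpx4 read 14.13, 14.22 and 14.26 in WT and 14.24, 14.24 and 14.25 in KO. All 3 KO values lay inside the range of the WT values, whose spread came from WT replicate 1. The difference was 0.04 ± 0.05 (SE), with a 95% interval from −0.06 to 0.15, which is 0.96-fold to 1.11-fold (limma adjusted p = 0.993). The second probe set, 1456193_x_at, read 13.79, 13.93 and 13.94 in WT and 13.92, 13.89 and 13.93 in KO, with a difference of 0.03 ± 0.05. Without WT replicates 1 and 2 both Gpx4 differences turned to the other side of zero (−0.01 and −0.02). The files do not say which of the Gpx4 starts each probe set can tell apart, so the mitochondrial, cytosolic and nuclear forms were not resolved. These levels are close to the highest value on any array, 15.00.

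Prdx4, an X-linked gene, encodes a peroxiredoxin known from the endoplasmic reticulum, where it uses hydrogen peroxide to form disulfides in newly made proteins. Transcript forms of Prdx4 were not told apart here. It had the 3 lowest differences among the tested probe sets of the members. Probe set 1416167_at of Prdx4 read 12.64, 12.92 and 12.91 in WT and 12.56, 12.54 and 12.67 in KO. KO replicate 3 lay above WT replicate 1 by 0.03, so the groups overlapped only there. The difference was −0.23 ± 0.08 (95% interval −0.43 to −0.04, 0.74-fold to 0.97-fold), which did not pass (limma adjusted p = 0.91, unadjusted p = 0.0237). Probe set 1416166_a_at read 10.73, 11.53 and 11.21 in WT and 10.61, 10.79 and 11.08 in KO, a difference of −0.33 ± 0.20 (limma adjusted p = 0.993). Here WT replicate 1 lay among the KO values and WT replicate 2 stood highest. Probe set 1435731_x_at read 7.72, 8.20 and 8.09 in WT and 7.52, 7.85 and 8.01 in KO, a difference of −0.21 ± 0.16 (limma adjusted p = 0.993). The fourth, 1431269_at, lay under the level filter at 3.88 to 4.08 on all arrays, with a difference of −0.01.

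The 3 tested probe sets of Prdx4 read 1 gene on the same arrays and are not replicates, and WT replicate 2 was the highest array at each of them. Averaged over them, the deviation from the mean of 6 arrays was −0.169, 0.351 and 0.205 in WT replicates 1 to 3 and −0.302, −0.138 and 0.053 in KO replicates 1 to 3. The array with the most spiked-in signal, WT replicate 2, was also highest for Prdx4, and the part of this in the difference was not tested. For probe sets 1416167_at, 1416166_a_at and 1435731_x_at in turn, the differences without WT replicate 2 were −0.19, −0.14 and −0.11. Without WT replicate 1 they were −0.33, −0.55 and −0.35, and the adjusted p of 1416167_at was 0.119, the lowest of any member under any alternative. Without both they were −0.33, −0.38 and −0.30. All 3 stayed below zero under all 14 alternatives and passed under none. Of these alternatives 1 leaves a single WT array and takes the spread from the KO arrays alone. The filter, replicate block and variance settings leave the difference itself as it is. Its sign could therefore move only with normalization or with arrays left out. The 650 tested X-linked probe sets as a whole lay mostly below zero, with 419 below and 231 above and a median difference of −0.034. At an unadjusted p under 0.05 there were 33 lower and 4 higher in KO, beside 482 lower and 898 higher of all 27022 tested. The values did not overlap at 60 in the lower and 15 in the higher direction. Among all tested probe sets these shares were 3.84% and 7.12%. The part of this X-linked shift in the Prdx4 differences was not tested.

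The 3 spermatid thioredoxins carry a thioredoxin domain and are known from male germ cells. Txndc2, formerly Sptrx-1, is a protein of the sperm tail's fibrous sheath, and its probe set 1437266_at read 12.99, 13.21 and 13.19 in WT and 13.07, 13.08 and 13.18 in KO. The KO values lay within the WT range, and the difference was −0.02 ± 0.07 (95% interval −0.18 to 0.14, limma adjusted p = 0.996). Txndc8, formerly Sptrx-3 and known from the Golgi of spermatids, read 12.27, 12.39 and 12.50 in WT and 12.38, 12.34 and 12.41 in KO. Its difference at 1420333_at was −0.01 ± 0.07 (−0.16 to 0.14, limma adjusted p = 0.999). Nme8, formerly Sptrx-2, joins a thioredoxin domain to nucleoside diphosphate kinase domains. Its probe set 1431871_at read 11.14, 11.20 and 11.39 in WT and 11.35, 11.25 and 11.31 in KO, a difference of 0.06 ± 0.07 (−0.11 to 0.23, limma adjusted p = 0.993). For each of the 3 genes WT replicate 1 was the lowest of the 6 arrays. The upper ends of the intervals allow a rise of 1.10-fold for Txndc2 and Txndc8 and 1.18-fold for Nme8, and the lower ends a level of 0.88-fold, 0.89-fold and 0.93-fold.

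Txnrd3 encodes thioredoxin glutathione reductase, a selenoprotein that is abundant in the testis and can reduce both thioredoxin and glutathione. It was the only member with KO and WT values that did not overlap, by a narrow margin and at 2 of its 3 probe sets. Probe set 1423868_at of Txnrd3 read 12.20, 12.12 and 12.16 in WT and 12.34, 12.29 and 12.20 in KO. The lowest KO value exceeded the highest WT value by 0.0001, and the difference was 0.12 ± 0.05 (95% interval −0.01 to 0.24, limma adjusted p = 0.987). Probe set 1423869_s_at read 12.51, 12.56 and 12.60 in WT and 12.68, 12.72 and 12.60 in KO, with a gap of 0.0040 and a difference of 0.11 ± 0.05 (limma adjusted p = 0.982). The third, 1449623_at, read 12.72, 12.94 and 12.92 in WT and 12.95, 12.92 and 12.86 in KO, so that its groups overlapped (0.05 ± 0.07). Among all tested probe sets at a mean log2 of 12 or more, 11.8% had KO values wholly above WT values, so such a separation was not rare at this level. The first 2 differences were above zero under the same 14 alternatives, between 0.07 and 0.15, and passed under none. Here too only normalization and arrays left out could move the difference.

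Txnrd1, the cytosolic thioredoxin reductase found in most cells, varied between WT mice (SD 0.22 and 0.50 at its tested probe sets) by more than the groups differed. Probe set 1421529_a_at of Txnrd1 read 9.51, 9.41 and 9.83 in WT and 9.77, 9.79 and 9.53 in KO (0.12 ± 0.12, limma adjusted p = 0.993). Probe set 1424486_a_at read 7.80, 6.97 and 7.87 in WT and 7.67, 7.77 and 7.41 in KO (0.07 ± 0.23, limma adjusted p = 0.996). The third, 1424487_x_at, lay under the filter and read 5.86, 4.91 and 5.77 in WT and 5.91, 5.59 and 5.53 in KO. All 3 were lowest in WT replicate 2, and without that array the difference at 1424486_a_at went to −0.22.

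Txn1, the general cytosolic thioredoxin and substrate of these reductases, read 10.18, 9.99 and 10.17 in WT and 10.19, 10.09 and 10.19 in KO at probe set 1416119_at (0.05 ± 0.07, 95% interval −0.12 to 0.21, limma adjusted p = 0.993). Its other probe set, 1456734_at, read 7.00, 6.62 and 6.53 in WT and 6.85, 6.80 and 6.80 in KO (0.10 ± 0.12). The groups overlapped at both, and the WT values spread more widely than the KO values. Gstm5, a mu class glutathione transferase expressed mainly in testis and brain, read 14.36, 14.49 and 14.55 in WT and 14.55, 14.56 and 14.59 in KO at 1416842_at. WT replicate 3 and KO replicate 1 met at 14.55, and the difference was 0.10 ± 0.05 (−0.02 to 0.22, limma adjusted p = 0.993). The difference was 0.01 without WT replicates 1 and 2. The Gstm5 levels, like those of Gpx4, are close to the highest value on any array, 15.00.

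Sod1, the copper and zinc superoxide dismutase that turns superoxide into hydrogen peroxide, had 5 probe sets. Of these, 1451124_at read 12.36, 12.04 and 12.20 in WT and 12.25, 12.29 and 12.18 in KO (0.04 ± 0.08, limma adjusted p = 0.994). Probe set 1459976_s_at read 12.25, 12.21 and 12.40 in WT and 12.30, 12.29 and 12.27 in KO, with a difference of −0.0002 ± 0.06 (95% interval −0.14 to 0.14). Both placed the KO values inside the WT range. Probe set 1435304_at of Sod1 read 9.89, 10.73 and 10.58 in WT and 10.40, 10.55 and 10.56 in KO (0.10 ± 0.20). Probe set 1440222_at read 6.03, 6.74 and 6.43 in WT and 6.24, 6.47 and 6.47 in KO (−0.01 ± 0.17). At the last 2 WT replicate 1 was lowest and WT replicate 2 highest, the order of the spiked-in controls, while at 1451124_at WT replicate 1 was highest, so probe sets of 1 gene disagreed about these arrays. The part of the spiked-in signal in these values was not tested. The fifth, 1447761_x_at, lay under the filter at 2.98 to 3.20.

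**Figure D2:**
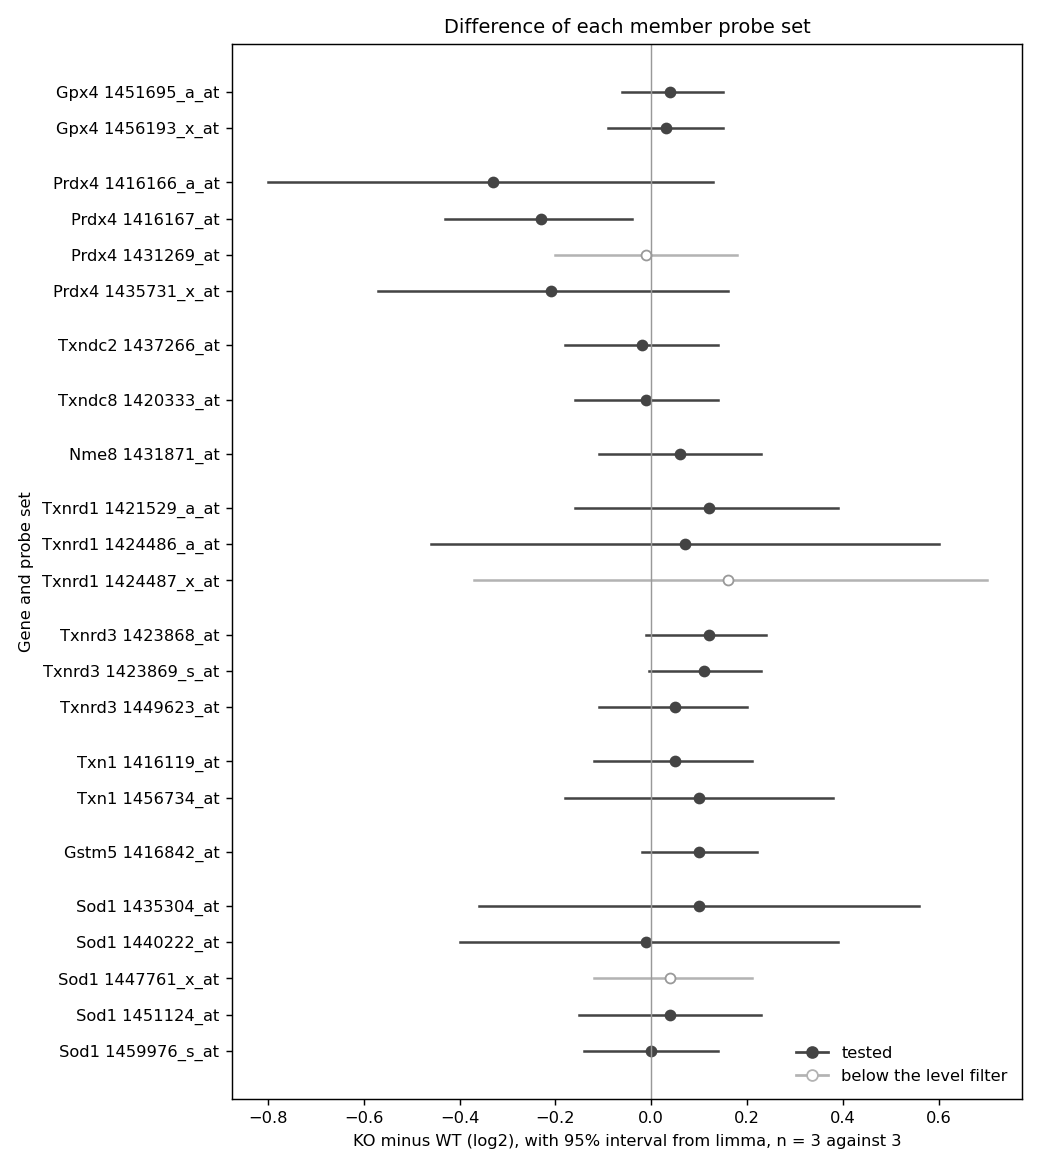
KO minus WT difference of each of the 23 member probe sets (points, log2) with its 95% interval from limma (lines, 3 arrays against 3); open points are the 3 probe sets under the level filter. The interval of Prdx4 1416167_at alone stays on 1 side of zero before adjustment, from −0.43 to −0.04, and the widest intervals belong to Txnrd1, Sod1 and Prdx4.

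Across the members WT replicate 1 was the lowest of the 6 arrays at 10 of the 20 tested probe sets (50%), beside 32.7% of all tested probe sets, and WT replicate 2 at 6 (30%, beside 22.3%). KO replicate 3 was the lowest at 0. The standard deviation over all 6 arrays had a median of 0.091 log2 over the 20, beside 0.102 for all tested probe sets. Of the 23 probe sets 13 carry the plain suffix _at. The suffix _a_at (4 of 23) marks probes shared by transcripts of 1 gene, and _s_at (2) and _x_at (4) mark probes that may also read other transcripts, which makes those 6 less certain.

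**Figure D3:**
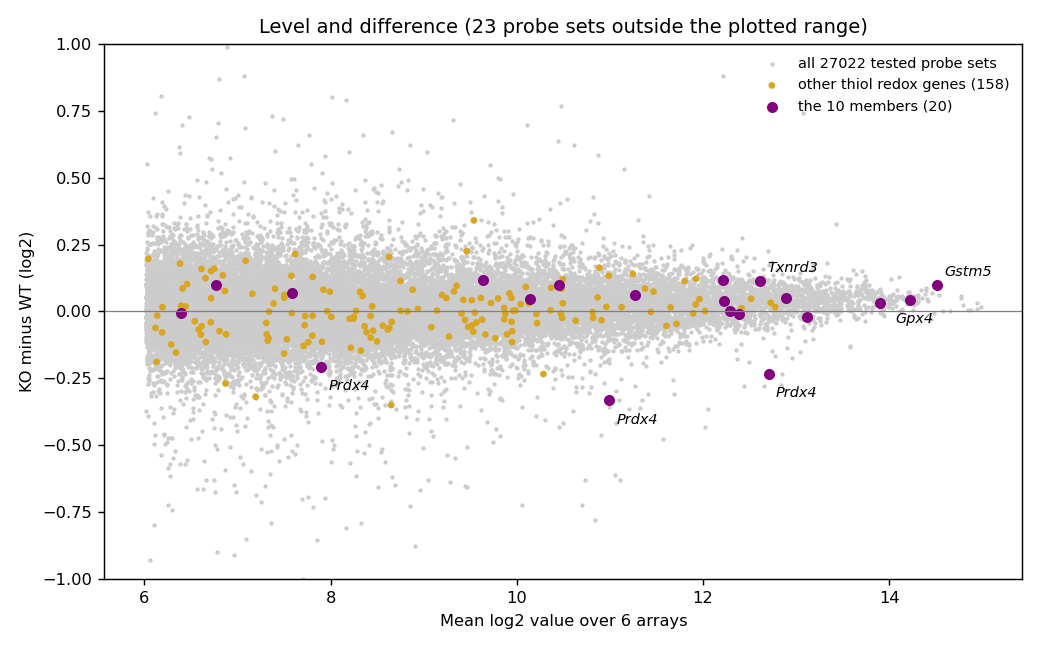
KO minus WT difference (vertical axis, log2) against the mean log2 value over 6 arrays (horizontal axis) for the 27022 tested probe sets (grey), those of the other thiol redox genes (gold, 158) and of the 10 members (purple, 20); 23 probe sets lie outside the plotted range from −1 to 1. The Prdx4 probe sets at the 2 higher levels sit at the lower edge of the cloud, and the median of all probe sets at 12 or above is 0.040.

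No gene of the wider thiol redox systems passed the test. A list of 102 other genes was drawn up by function, of which 94 had a probe set of their own and 92 a tested one. Of their 158 tested probe sets 0 passed in either direction (limma, smallest adjusted p = 0.863), and 8 had an unadjusted p under 0.05, beside 5.11% of all tested probe sets. Equal numbers, 79 and 79, had differences above and below zero. KO values lay wholly above WT values at 8 of them, beside 7.12% of all tested probe sets, and wholly below at 10, beside 3.84%.

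Sod2, the manganese superoxide dismutase of mitochondria, had the smallest p of the list. Its probe set 1454976_at read 7.10, 6.94 and 6.98 in WT and 6.80, 6.68 and 6.73 in KO, without overlap, a difference of −0.27 ± 0.07 that did not pass (limma adjusted p = 0.863). The other 3 probe sets of Sod2, 1417193_at, 1448610_a_at and 1417194_at, had differences of 0.03, 0.05 and 0.10, and their groups overlapped. Among the glutathione peroxidases (7 tested probe sets, median 0.066) Gpx6 read 9.34, 9.38 and 9.39 in WT and 9.93, 9.37 and 9.82 in KO. Its KO values thus stood apart from each other, with a difference of 0.34 ± 0.13 (limma adjusted p = 0.936). The other peroxiredoxins and sulfiredoxin were covered only by Prdx2, Prdx3 and Srxn1 (7 tested probe sets, median −0.074). Prdx1, Prdx5, Prdx6 and Prdx6b had no probe set of their own. Prdx2 had the smallest p, at −0.35 ± 0.20 at 1430979_a_at, where KO replicate 3 read 7.95 and the other 5 arrays 8.70 to 8.91. The other Prdx2 probe set, 1418506_a_at, stood at −0.04.

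Synthesis of selenoproteins, on which Gpx4, Txnrd1 and Txnrd3 depend, was covered by 11 genes with 23 tested probe sets (median 0.017). Of these 4 had an unadjusted p under 0.05, 1 higher and 3 lower in KO, beside 5.11% of all tested probe sets. Lrp8, the receptor through which the testis takes up selenoprotein P, read 7.56, 7.45 and 7.53 in WT and 7.75, 7.84 and 7.58 in KO at 1421459_a_at, a difference of 0.21 ± 0.08 (limma adjusted p = 0.932). The other Lrp8 probe sets, 1442347_at and 1440882_at, stood at −0.11 and 0.04. Sephs2, which makes the selenium donor, stood at −0.23 ± 0.10 at 1449040_a_at (limma adjusted p = 0.958), while its probe sets 1418325_at and 1435602_at stood at 0.02 and 0.16. Trnau1ap, which binds the selenocysteine transfer RNA, stood at −0.16 ± 0.06 at 1428746_a_at (limma adjusted p = 0.952) and at −0.15 at 1428747_at. Secisbp2l, a relative of the protein that binds the selenocysteine insertion element, stood at −0.19 ± 0.08 at 1456120_at (limma adjusted p = 0.973) and at 0.0002 at 1450642_at. None of them passed.

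In the remaining groups the probe sets with the smallest p were those of Chac1, a glutathione-degrading enzyme (0.19 ± 0.07, limma adjusted p = 0.932), and Txnl4a, a spliceosome protein with a thioredoxin fold (0.16 ± 0.07 at 1442808_at, limma adjusted p = 0.961). The other Txnl4a probe sets, 1419179_at and 1433698_a_at, stood at −0.08 and 0.0024. Among glutathione transferases it was Gsta2 (−0.11 ± 0.06), and among enzymes of disulfide formation in the endoplasmic reticulum it was Tmx3 (−0.12 ± 0.06). The 28 tested probe sets of that last group had differences from −0.12 to 0.14 and a median of −0.012. Msrb3, a methionine sulfoxide reductase, stood at 0.11 ± 0.09 at 1439151_at and at 0.0039 at 1454997_at. Maf, a transcription factor of the Maf family, stood at 0.20 ± 0.13 at 1447849_s_at, and its other tested probe sets, 1456060_at and 1447945_at, at −0.13 and −0.06. Gsta2, Tmx3, Msrb3 and Maf had adjusted p of 0.993 by limma at the probe sets with the smallest p.

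**Figure D4:**
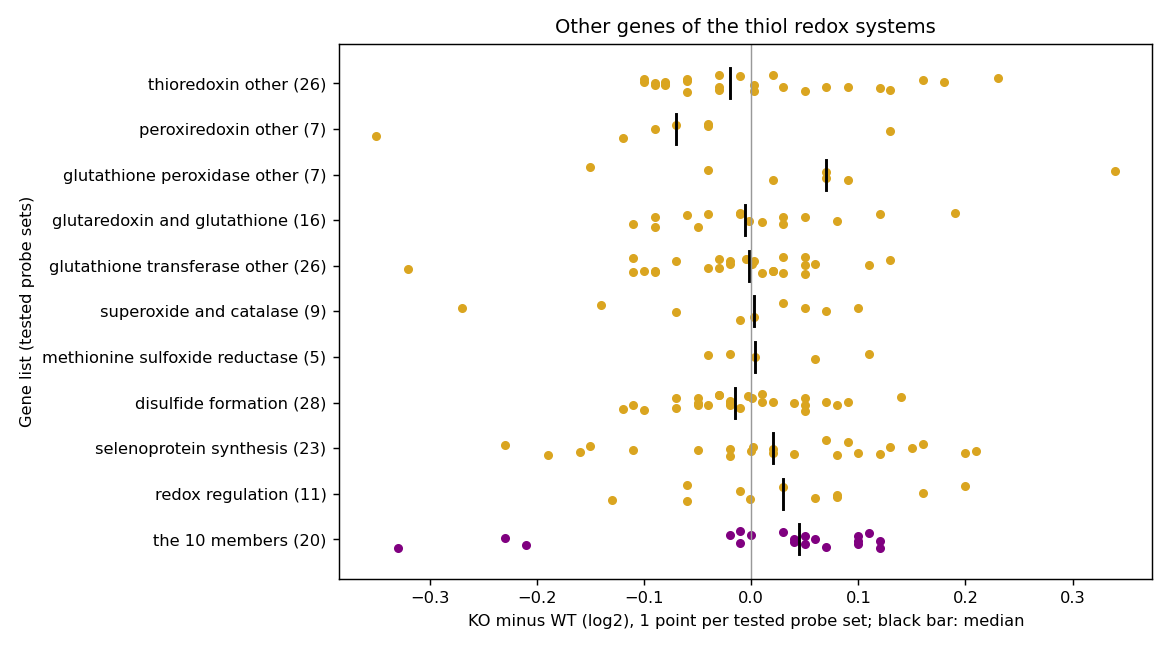
KO minus WT difference (horizontal axis, log2) of every tested probe set of the 10 lists of other thiol redox genes (gold) and of the 10 members (purple), with the number of tested probe sets in parentheses and the median as a black bar. Medians lie between −0.074 and 0.066, and no probe set shown passed the test.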

How the data were processed

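Total RNA of 6 whole testes was labelled with biotin and hybridised to Affymetrix arrays, per the labels' protocols. The authors deposited normalized log2 values for 45101 probe sets, and GCOS 1.4 is named in the submitters' processing notes. Background correction, probe summary and normalization were not given in the sources used here. That the scale is log2 follows from the range of values (2.61 to 15.00), which are not centred per gene, and signal over background is unknown. Of the 64 control probe sets none was tested. Names came from the platform annotation, updated by gene id through RefSeq (99.4% of 34945 single-gene probe sets matched).

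The upper 60% by mean level were kept (27022, lowest mean 6.02) and compared by limma 3.58.1 in R 4.3.3 (lmFit, eBayes with an intensity trend, two-sided, Benjamini-Hochberg, threshold 0.05). The fit was also run on simulated arrays with independent noise and with changes larger than any member difference. That run cannot show how the fit treats effects shared across an array or differences as small as those of the members. Intervals are limma's at 95%, and the median SE over all tested probe sets was 0.082. Figures used matplotlib 3.10.9. Probe sets under the filter have values from a fit without it. The number of arrays limits the precision. Replicates are separate mice per the labels. The members and lists were chosen with earlier results of these data known. The rule for named genes took every member probe set and, per list of other redox genes, the tested probe set with the smallest p; Sephs2, Trnau1ap, Secisbp2l and further probe sets of the genes named were added after their values were seen. Alternatives covered the filter, normalization, a replicate block, variance moderation and arrays left out.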

Additional observations from a re-analysis of the deposited data

How the results depend on the processing

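No member probe set and none of the other thiol redox genes passed under any of the 14 alternatives. The count of 11 over all probe sets was 7 with only the upper 40% by level, 2 to 12 with single arrays left out (4 without WT replicate 3, 6 without KO replicate 1, 2 without KO replicate 3) and 2 without WT replicates 1 and 2. With the replicate number as a block it was 9, and members and other redox genes kept 0. Same-numbered arrays deviated together with r of 0.22, −0.02 and 0.10, and different-numbered ones with r from −0.28 to 0.25. The deviations sum to zero within each group of 3, so these values cannot show whether the numbers pair the mice.

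Of the 20 tested member probe sets 7 kept their sign under every alternative in which they were tested, and 13 changed it in at least 1. The 7 were all 3 of Prdx4, 2 of Txnrd3, Gstm5 and 1 of Txn1. The last was tested under 13 of the 14, since it lay below the upper 40% by level. Only normalization and arrays left out can change a sign, since the filter, replicate block and variance settings leave the difference as it is. With quantile normalization Gpx4 stood at −0.01 and −0.0028 and Txnrd3 1449623_at at −0.0009. Without WT replicates 1 and 2, Gpx4 stood at −0.01 and −0.02, Nme8 at −0.09, Txnrd1 at −0.13 and −0.25, Txnrd3 1449623_at and Txn1 1416119_at at −0.01, and Sod1 1435304_at at −0.08. With single arrays left out the differences ran from −0.02 to 0.05 for Gpx4 1456193_x_at, −0.09 to 0.02 for Txndc2, −0.07 to 0.05 for Txndc8 and −0.22 to 0.23 for Txnrd1 1424486_a_at. They ran from −0.02 to 0.09 for Txnrd3 1449623_at, −0.02 to 0.08 for Txn1 1416119_at, −0.16 to 0.27 for Sod1 1435304_at, −0.19 to 0.17 for 1440222_at, −0.04 to 0.12 for 1451124_at and −0.04 to 0.05 for 1459976_s_at. The cause was not tested. The number of arrays, 3 a group, limits the precision, and the intervals given for each gene are not adjusted over probe sets.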
